A study of Arabidopsis thaliana with 6 samples.

Results

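Phytocyanins are small secreted plant proteins with the fold of blue copper proteins. ARPN encodes plantacyanin, the basic blue copper protein of Arabidopsis (locus AT2G02850), and AT1G72230 encodes another member of the cupredoxin family. The set was defined as these 2 genes plus every probe set with 1 annotated gene whose symbol is ENODL (early nodulin-like) or UCC (uclacyanin) followed by a number. The reference gene table holds 22 ENODL and 3 UCC genes, and 0 of these 25 was assigned to a probe set in the platform annotation used here. The set therefore came down to ARPN and AT1G72230, 2 of 22746 probe sets, or 2 of 13350 genes named on the array, with 1 probe set for each gene. No statement about the ENODL and UCC genes can be made from these arrays as annotated here.

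Phytocyanins differ in whether they bind copper. Plantacyanins and uclacyanins keep the copper ligands, while most early nodulin-like proteins have lost them and are anchored to the membrane as chimeric arabinogalactan proteins. In Arabidopsis, plantacyanin is found in the inflorescence and in the transmitting tract of the pistil, the tissue through which pollen tubes grow, and excess plantacyanin disturbs the path of pollen tubes on the stigma. Its transcript is a target of the copper-responsive microRNA miR408. The related chemocyanin of lily, secreted by the stigma, attracts pollen tubes.

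The samples were pollinated flowers at stages 14 to 15 from plants of the Ler accession, hybridised to Affymetrix ATH1 GeneChips. There were 3 arrays of flowers homozygous for the pop2-1 allele and 3 of wild-type flowers. POP2 is a transaminase gene whose product degrades the amino acid GABA (γ-aminobutyrate), and the comparison asks which transcripts differ where floral GABA is high. Groups were taken from the sample titles, since in other label fields the wild-type entries carry text written for the mutant. The titles call the replicates biological without saying whether plants were pooled. The pop2-1 flowers represent 1 allele in 1 accession, and the POP2 transcript itself was not analysed here. In whole flowers, fewer cells of a type and less RNA per cell cannot be told apart.

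The values are MAS5 signals, linear hybridisation intensities with 1 value per probe set and array. The median signal per array lay between 209.3 and 228.9. Spearman correlations across transcripts ran from 0.929 to 0.96 between pop2-1 arrays and from 0.979 to 0.982 between wild-type arrays. The array of pop2-1 replicate 2 had an actin 3'/5' signal ratio, a measure of RNA integrity, of 9.73, against 1.72 to 2.93 on the other 5 arrays.

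ARPN was brighter in pop2-1 flowers. Its signal was 4564, 5167 and 5183 on the arrays of pop2-1 replicates 1, 2 and 3, and 3698, 3297 and 3615 on those of wild-type replicates 1, 2 and 3. The groups did not overlap. The lowest pop2-1 signal exceeded the highest wild-type signal by 865. The mean was 4971 ± 353 for pop2-1 and 3537 ± 212 for wild type (SD, n = 3 per group). On the scale of log2(signal + 16) the difference was 0.49 ± 0.10 (limma standard error), a 1.40-fold higher level.

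AT1G72230 went the other way. Its signal was 351, 373 and 374 on the arrays of pop2-1 replicates 1, 2 and 3, and 751, 665 and 609 on those of wild-type replicates 1, 2 and 3. These groups did not overlap either, and the lowest wild-type signal stood 236 above the highest pop2-1 signal. The mean was 366 ± 12.7 for pop2-1 and 675 ± 71.3 for wild type (SD, n = 3 per group). The difference on the log2(signal + 16) scale was -0.85 ± 0.12 (limma standard error), a 1.80-fold lower level.

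**Figure D1:**
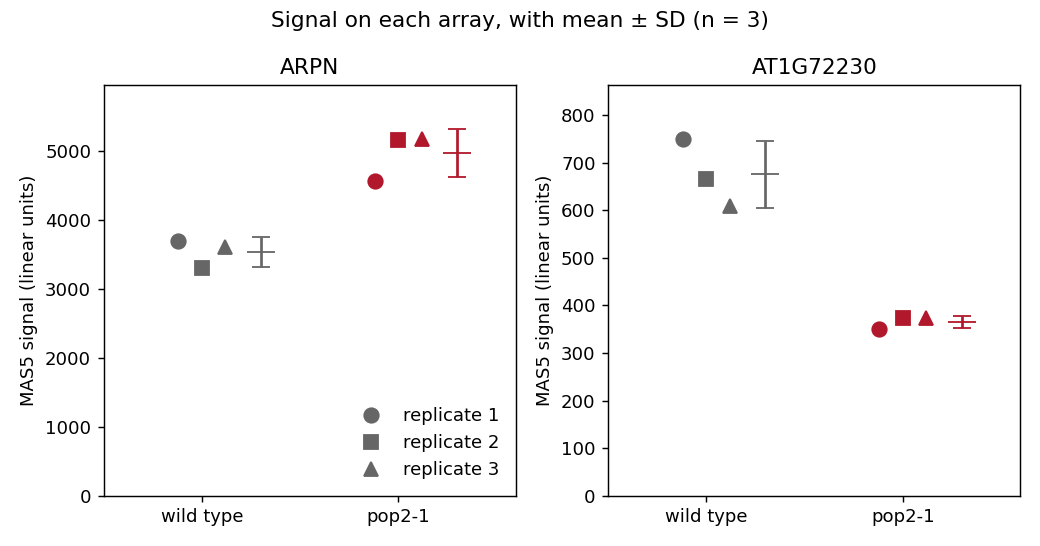
MAS5 signal (linear units, axes from 0) of ARPN and AT1G72230 on each of the 6 arrays, with the mean and SD of each group beside the points (n = 3). Point shapes give the replicate number. All 3 pop2-1 signals of ARPN, from 4564 to 5183, lie above the wild-type signals, and all 3 of AT1G72230, from 351 to 374, lie below them.

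ARPN and AT1G72230 were chosen by their signals in pop2-1 against wild type, the contrast described here, so no test of that difference is given for either. For the same reason, the absence of overlap supports nothing here. It was found for 17.9% of the 13647 tested probe sets, with 9.84% higher and 8.04% lower in pop2-1.

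The 2 genes differed in where their variation lay. ARPN varied by a similar proportion in both groups, with a coefficient of variation of 7.11% in pop2-1 and 5.98% in wild type (n = 3 per group). AT1G72230 was nearly level across the pop2-1 arrays, at 3.48%, and more variable across the wild-type arrays, at 10.6%. Its highest signal, 751, came from wild-type replicate 1. With 3 arrays per group a difference between such spreads was not tested.

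Arrays with the same replicate number may share a source of variation, so the difference was also taken within each number. For ARPN it was 0.30, 0.65 and 0.52 on the log2 scale for numbers 1, 2 and 3. For AT1G72230 it was -1.06, -0.81 and -0.68. Number 1 gave the smallest difference for ARPN and the largest for AT1G72230. Because the groups do not overlap, the sign within each number was fixed. Without pop2-1 replicate 2, the array with the high actin ratio, the log2 differences were 0.46 for ARPN and -0.86 for AT1G72230.

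Against the whole array the difference of AT1G72230 was the more extreme. The median log2 difference of all tested probe sets was 0.03, with quartiles at -0.11 and 0.17. A difference at least as high as that of ARPN was found for 443 tested probe sets, or 3.25%. A difference at least as low as that of AT1G72230 was found for 128, or 0.938%. Both genes were chosen for their difference, so these shares only describe its size and are not support for it.

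**Figure D2:**
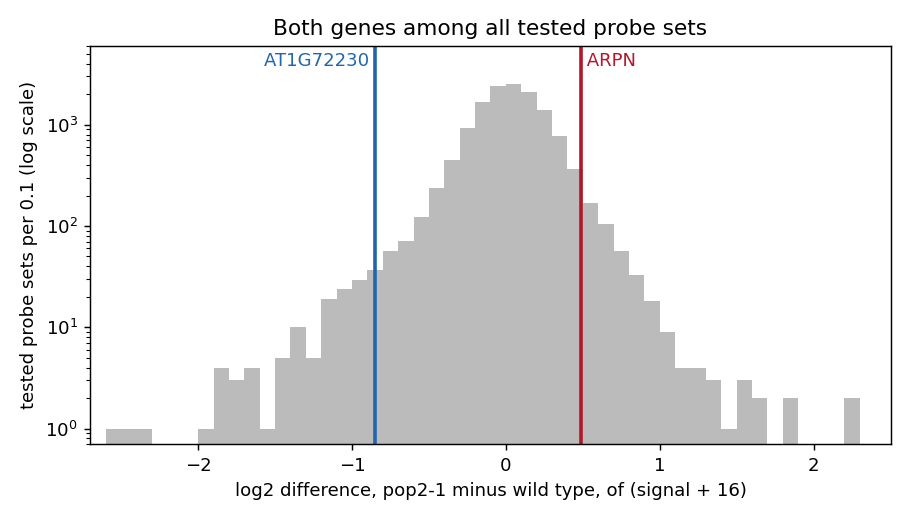
Distribution of the log2 difference (pop2-1 minus wild type, of signal + 16) over the 13647 tested probe sets, in bins of 0.1, with the count on a log axis. Vertical lines mark ARPN at 0.49 and AT1G72230 at -0.85, both outside the quartiles of -0.11 and 0.17. Both genes were chosen for their difference, so their place here is not support for it.

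Other phytocyanin genes were looked for by locus number. The reference table does not describe these loci, and their place in the family is general knowledge. Of 14 such loci 8 had a listed probe set and 1 was bright enough to test. That gene, AT3G27200, had signals of 716, 613 and 763 in pop2-1 replicates 1 to 3 and 758, 823 and 760 in wild-type replicates 1 to 3. The groups overlapped, with the lowest signal on pop2-1 replicate 2. Its log2 difference was -0.16 ± 0.12 (limma adjusted p = 0.623), and -0.08 without pop2-1 replicate 2. It did not pass the threshold used for genes outside the set, a limma adjusted p under 0.05, which 0.462% of the tested probe sets met.

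The other 7 phytocyanin loci, AT5G26330, AT2G31050, AT4G01380, AT2G15780, AT3G60270, AT1G22480 and AT2G26720, had signals between 1.04 and 160 over all 6 arrays. Their mean levels lay below the limit of 126 used for testing, and 6 of the 7 overlapped between the groups. Of the 13647 tested probe sets, 17.9% did not overlap. That share was not taken over dim probe sets, so the count says nothing particular about these loci. AT2G26720 did not overlap, but its signals were all between 1.04 and 3.15, where detection is not known. All 8 loci together summed to between 830 and 1169 on the mutant arrays and between 1031 and 1125 on the wild-type arrays. Of the phytocyanin genes bright enough to test, ARPN and AT1G72230, chosen for it, had groups that did not overlap and AT3G27200 had not.

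Genes of copper handling were nearly absent from the annotation. Of 30 genes for copper uptake, delivery and use, 1 was listed, CCS, the chaperone that loads copper into superoxide dismutase. The log2 difference of CCS was 0.08 ± 0.10 (limma adjusted p = 0.765), and its mean signal was 2052 ± 128 against 1936 ± 44.8 in the wild type (SD, 3 arrays each). Of 10 genes known as targets of miR408, miR397 or miR398, CCS and AT3G15640 were listed, and 0 of 2 passed. AT3G15640 stood at -0.18 ± 0.11 (limma adjusted p = 0.539). A change in copper supply could therefore hardly be assessed.

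SKU5 encodes a GPI-anchored wall protein related to the multicopper oxidases and built of cupredoxin domains. Of 37 genes of its family and of the laccases, 5 were listed and SKU5 alone was tested. Its signals were 2081, 3848 and 3087 in pop2-1 replicates 1 to 3 and 2119, 2447 and 2554 in wild-type replicates 1 to 3. The groups overlapped and the highest signal was on pop2-1 replicate 2. The log2 difference was 0.30 ± 0.20 (limma adjusted p = 0.572). It was 0.10 without that array and 0.54 without pop2-1 replicate 1, and passed in neither fit. None of the 71 arabinogalactan protein genes looked for had a listed probe set.

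Of 27 genes for pollen tube reception and guidance, 6 were listed and 3 tested, and 0 passed. FER, the receptor kinase of the synergid cells that receives the pollen tube and binds early nodulin-like proteins, averaged 2225 ± 190 on the mutant arrays and 2149 ± 17.2 on the wild-type arrays (SD, 3 arrays each). Its log2 difference was 0.05 ± 0.10 (limma adjusted p = 0.879), and its sign turned with scaling to equal medians. ANX2, a related receptor kinase of the pollen tube, stood at 0.49 ± 0.24 (limma adjusted p = 0.457). It was 0.21 without pop2-1 replicate 2 and 0.76 without pop2-1 replicate 1, and passed in neither fit. AT5G59700 stood at 0.40 ± 0.19 (limma adjusted p = 0.446), and at 0.24 to 0.49 with 1 array left out.

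Markers of other floral cell types were read beside both genes. The 7 floral organ identity genes had no listed probe set, so the tissue label was not checked on them. SWEET9, the sugar exporter of nectaries, was bright on all arrays, averaging 7117 ± 264 on the mutant arrays and 7147 ± 190 on the wild-type arrays (SD, 3 arrays each). The sign of its log2 difference, -0.01 ± 0.08, turned with quantile normalization. The 2 listed tapetum genes summed to 28.2 to 40.3 on the mutant arrays and 8.67 to 72.6 on the wild-type arrays.

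For the transmitting tract, where plantacyanin is known to occur, 2 of 6 markers were listed. They summed to between 3528 and 4452 on the mutant arrays and between 2570 and 2733 on the wild-type arrays, without overlap. Most of the sum came from CES, a bHLH factor of the reproductive tract, with signals of 3951, 3330 and 4202 on the pop2-1 arrays and 2566, 2473 and 2347 on the wild-type arrays of replicates 1 to 3. Of all tested probe sets, 9.84% were likewise higher in pop2-1 without overlap, so the lack of overlap says nothing particular about this tissue. The log2 difference of CES, 0.63 ± 0.11, did not pass (limma adjusted p = 0.0561). With the replicate block, where 1.88% of tested probe sets were called, it passed (limma adjusted p = 0.0245), and the alternatives together gave 0.000928 to 0.334. The lists were chosen with earlier results of these data known, so a call of CES is not support for its difference. SPT, a carpel margin factor, stood at 0.16 ± 0.19 (limma adjusted p = 0.763), and at 0.0018 to 0.28 with 1 array left out, lowest without wild-type replicate 1. Whether these markers had a part in the higher ARPN signal was not tested.

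Of 8 young seed genes 3 were listed, summing to between 61.2 and 92.1 on the mutant arrays and between 265 and 530 on the wild-type arrays. Most of this sum came from BAN. AGL62 had signals of 13.8 to 33.8 on the mutant arrays and 17.5 to 31.4 on the wild-type arrays. IKU2 had 2.76 to 7.09 and 4.38 to 6.73. Both were too dim to test and overlapped between the groups, so the sum describes BAN and not young seed genes in general. BAN, the anthocyanidin reductase of the seed coat, stood at -2.45 ± 0.29 on the log2 scale (limma adjusted p = 0.0102). Its pop2-1 signals, 43.5 to 71.2, lay below the limit of 126 used for testing. It entered the test through its wild-type signals and so had to differ, and its call supports nothing. The difference was -2.74 with a pseudocount of 1 and -1.88 with one of 64. The call was lost without pop2-1 replicate 3 (limma adjusted p = 0.0792), wild-type replicate 2 (0.0643) or wild-type replicate 3 (0.094), and the alternatives together gave 0.000698 to 0.094. BAN and AT1G72230 were both lower on all 3 pop2-1 arrays than on any wild-type array. Such a gap in this direction occurred in 8.04% of the 13647 probe sets tested. AT1G72230 was chosen for its difference, and BAN had to differ to be tested. That both show the gap therefore says nothing about a link between them. Among the wild-type arrays replicate 1 had the lowest BAN signal (229, against 494 and 458) and the highest AT1G72230 signal. An order of 3 arrays is too little to draw a conclusion from. The part of young seed tissue in the lower AT1G72230 signal was not tested.

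For pollen, 5 of 10 markers were listed, summing to between 2324 and 3289 on the mutant arrays and between 2571 and 2784 on the wild-type arrays, which overlap. Of 4 tested pollen genes 0 passed. MGH3, a histone of male gametes, stood at 0.53 ± 0.23 (limma adjusted p = 0.412), ACT12, an actin of pollen, at 0.43 ± 0.24 (0.514) and TUA1, a tubulin, at -0.14 ± 0.10 (0.622). With 1 array left out they ran from 0.35 to 0.75, from 0.26 to 0.64 and from -0.20 to -0.08. INO, an ovule integument gene and the 1 listed of 7 ovule genes, stood at 0.31 ± 0.20 (limma adjusted p = 0.567), and at 0.14 to 0.50 with 1 array left out, the ends being those without wild-type replicates 1 and 3. Over all 13 lists 15 different genes were tested. BAN, limited as above, was the 1 gene called, lower in pop2-1, where 0.462% of all tested probe sets were called in either direction. An unadjusted p under 0.05 was found for 3 of the 15, BAN included, where 1621 of all 13647 tested probe sets, or 11.9%, had one.

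**Figure D3:**
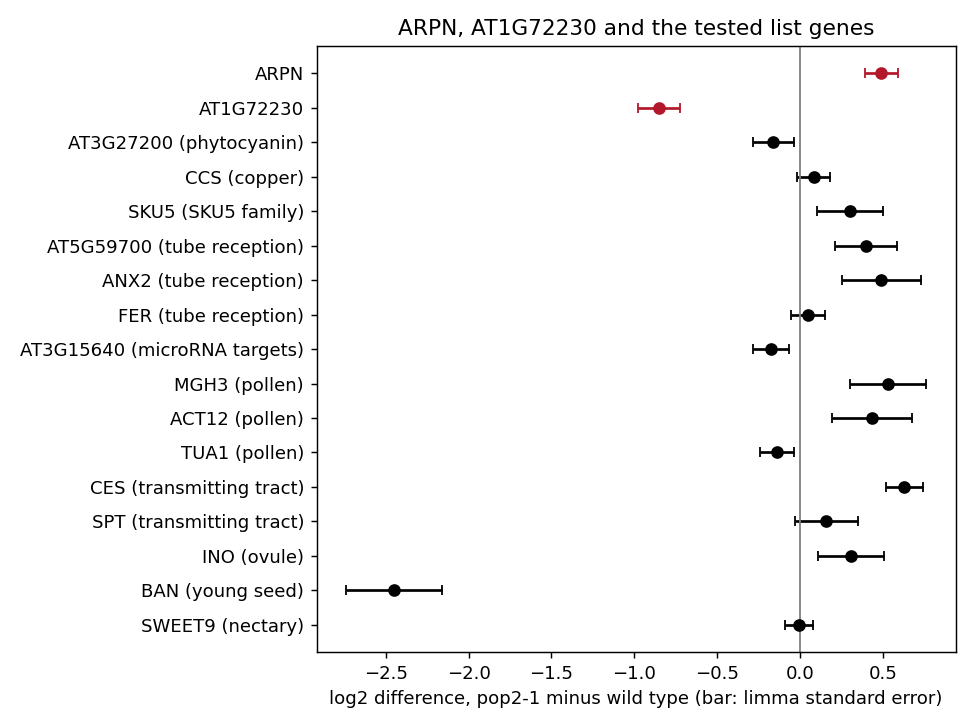
Log2 difference (pop2-1 minus wild type) with limma's standard error for ARPN and AT1G72230, in red, and for the 15 tested genes of the lists, in black, each with its list in brackets. ARPN at 0.49 and CES at 0.63 lie to the right, AT1G72230 at -0.85 and BAN at -2.45 to the left, and CCS, FER and SWEET9 near 0.

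The genes nearest in pattern were found by the Pearson correlation r of log2(signal + 16) with each member over the 6 arrays, among the 7318 other tested probe sets with 1 named gene. This r mixes the difference between the groups with the variation inside them and serves as a measure of likeness. Because the genes were chosen by this r, likeness inside the groups and a shared order of arrays follow in part from the choice. An r over 6 arrays is imprecise. Of the 7318 probe sets compared, 140 had an r above 0.9 with ARPN and 96 with AT1G72230.

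Nearest to ARPN were AT3G42630 (r = 0.996), AT3G49810 (0.991), SETH2 (0.99), AT2G02400 (0.988) and AT5G05480 (0.986). SETH2 encodes an enzyme of GPI anchor synthesis that pollen germination and tube growth need. Its signals were 314, 381 and 352 on the pop2-1 arrays and 261, 225 and 246 on the wild-type arrays of replicates 1 to 3, and its log2 difference of 0.49 was of the size of that of ARPN. The other 4 had smaller differences, from 0.24 to 0.32. After the group means were taken away, r with ARPN was 0.976 for AT3G42630, 0.928 for SETH2 and 0.857 for AT5G05480. Wild-type replicate 2 was the lowest array and pop2-1 replicate 1 the lowest of its group for ARPN and for each of these 5 genes.

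Nearest to AT1G72230 were CYTC-2 (r = 0.986), AT5G02580 (0.984), AT3G18250 (0.983), HAT2 (0.983) and AT5G07090 (0.977). CYTC-2 encodes cytochrome c of the mitochondrial electron transport chain, and HAT2 a homeodomain-leucine zipper factor that responds to auxin. HAT2 had the nearest log2 difference in size, -0.92, while the others ran from -0.27 for AT3G18250 to -0.64 for AT5G02580. Inside the groups AT5G02580 followed AT1G72230 most closely, with r = 0.996, from 1372, 1132 and 1022 in wild type to 701, 769 and 759 in pop2-1. HAT2 had r = 0.469 inside the groups, so its likeness lay mostly in the difference between them.

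**Figure D4:**
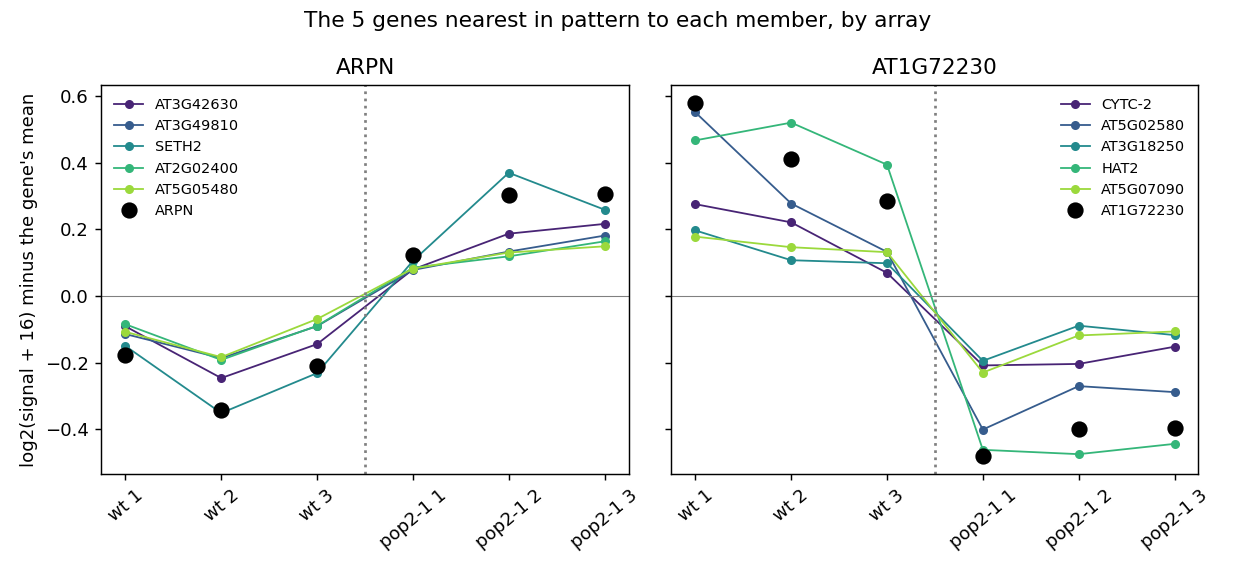
Log2(signal + 16) minus each gene's own mean on the 6 arrays, for ARPN and AT1G72230 (black points) and the 5 genes nearest in pattern to each (coloured lines). A dotted line divides wild-type from pop2-1 arrays. SETH2 follows ARPN in size as well as shape, with a log2 difference of 0.49, and HAT2, at -0.92, comes nearest to the size of AT1G72230.

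Chromosomal neighbours were examined for AT1G72230 and ARPN in the reference gene table. The protein-coding neighbours of ARPN, AT2G02840 and SUT2, had no listed probe set. Beside AT1G72230, the log2 difference of AT1G72240 was -0.27 ± 0.21 and did not pass (limma adjusted p = 0.639), and AT1G72220 was too dim to test.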

How the data were processed

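The authors deposited a linear intensity for every probe set on each array, the MAS5 signal per the submitters' processing notes. Its version and scaling target are not given in the sources used here. The 2% trimmed mean was 500.04 on each array, so every difference is relative to the array average. Detection calls were not used here, and precision is limited by the 6 arrays.

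Of 22810 probe sets 64 were array controls. Gene names came from the platform annotation (1 gene for 13513 probe sets, several for 503, and 8794 not listed), updated through Entrez numbers to the table of assembly TAIR10.1, which held 13436 of the 13513. No genome build accompanies the signals, so coordinates are not given.

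Signals were taken as log2(signal + 16). Testing was limited to means of the log2 values above their 40th percentile, a signal of about 126. These 13647 probe sets were fitted with limma 3.58.1 in R 4.3.3 (lmFit, eBayes with trend, 2-sided, Benjamini-Hochberg over all tested), after a check on simulated data. The p-values set the difference between the groups against the spread between arrays of a group, moderated over all tested probe sets. Since the titles do not say whether plants were pooled, what that spread covers is not known. The main fit did not use the replicate numbers. Once group means were removed, arrays sharing a number correlated at 0.213, 0.421 and 0.178. A fit with the number as a block was therefore run as an alternative, and blocked values are given where they change a call. Any pairing rests on the numbers in the titles and on those correlations. Correlations between arrays of different numbers are not given here, so the pairing is not established.

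The members and lists were chosen with earlier results of these data known, so a call on a list gene is not support for its difference. Named genes were all members, list genes that passed or else the up to 4 with the smallest p, and the 5 nearest in pattern to each member. From the lists, 3 entries whose locus belonged to another gene were left out. Neighbouring genes were added after their values were seen. The alternatives changed the pseudocount, filter, scaling, block, array weights, threshold and arrays.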

Additional observations from a re-analysis of the deposited data

How the results depend on the processing

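Over 15 alternatives the log2 difference of ARPN ran from 0.43 to 0.55 and that of AT1G72230 from -0.92 to -0.77, each within 1 SD of the value reported, the SD being pooled over both groups. The filter settings and the replicate block are among these alternatives and could not change either difference. For AT1G72230 both ends lay over 1 SD of the pop2-1 arrays alone (0.05 on the log2 scale) from it. Without 1 array they ran from 0.44 to 0.55 and from -0.92 to -0.77; non-overlapping groups could not have changed sign there. The actin 3'/5' ratio as a covariate was added with the data in view. The planned test of ENODL and UCC genes had no gene to run on.

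Of the 15 list genes 1 was called as reported, 0 with a filter at the 60th percentile, where BAN was not tested, and 2, BAN and CES, with quantile normalization, the replicate block, array weights, an adjusted p under 0.10 or the actin covariate. Leaving out 1 array gave 0 to 2. The replicate block changed no other call among the genes named from the lists. The sign of FER turned with equal medians (-0.016), array weights (-0.024) and the actin covariate (-0.0077), and leaving out 1 array gave -0.021 to 0.094, negative without pop2-1 replicate 2. That of SWEET9 turned with quantile normalization (0.054) and array weights (0.015), and leaving out 1 array gave -0.024 to 0.025, positive where replicate 1 of either group was missing.

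Over all probe sets there were 63 calls, 20 higher and 43 lower. The block gave 257, array weights 946, an adjusted p under 0.10 150, the actin covariate 156 and the 60th percentile filter 37. No filter gave 27 lower calls. Leaving out pop2-1 replicate 1 gave 496, and leaving out any other array gave 5 to 75. Fewer arrays or probe sets entered where these were left out. The causes of these changes in the counts were not tested.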
